A study of Mus musculus with 9 samples.

Results

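The 10 Frizzled genes (*Fzd1* to *Fzd10*) encode the seven-pass membrane receptors to which secreted Wnt proteins bind. They were chosen by gene symbol from the deposited table of 54532 genes, each symbol was found once, and all 10 carried enough counts to be tested in each comparison. The RNA came from lambdoidal junction tissue of C57BL/6J mouse embryos, the seam of the facial prominences (nasal and maxillary) that gives rise to the upper lip and primary palate. Groups were the 3 stages E10.5, E11.5 and E12.5 (embryonic days), with 3 libraries each and no treatment or engineered allele. Each library was a pool of embryos, so the spread between libraries is that between pools and not between single animals. Depth was 16581009 to 20836804 counts per library.

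In Wnt/β-catenin signaling, a Wnt ligand joins a Frizzled to the co-receptor Lrp5 or Lrp6, Dishevelled is recruited to the membrane, and β-catenin is spared from breakdown and reaches TCF/LEF factors in the nucleus. In planar cell polarity signaling, Frizzleds act with Vangl, Celsr and Prickle proteins to orient cells, without β-catenin. The family falls by sequence into *Fzd1*/*Fzd2*/*Fzd7*, *Fzd5*/*Fzd8*, *Fzd4*, *Fzd9*/*Fzd10* and *Fzd3*/*Fzd6*. Wnt signaling is required for outgrowth and fusion of the facial prominences, and mouse embryos that lack both *Fzd1* and *Fzd2* have a cleft palate.

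Frizzled composition changed between the stages. From E10.5 to E12.5, *Fzd5*, *Fzd8*, *Fzd4* and *Fzd3* fell, *Fzd10* and *Fzd9* rose, and *Fzd1*, *Fzd2*, *Fzd6* and *Fzd7* did not pass the test. With all libraries, *Fzd5* and *Fzd8* (lower) and *Fzd10* (higher) passed the test between E10.5 and E11.5. Between E11.5 and E12.5, *Fzd4* (lower) and *Fzd9* (higher) passed it. A direct test by edgeR called no Frizzled different between these intervals, so the intervals are not shown to differ. Levels are CPM, the count of a gene scaled to a common library size after TMM normalization, and are given as mean ± SD (n = 3). A gene was past the test at an adjusted p of at most 0.05 (edgeR's quasi-likelihood test, Benjamini-Hochberg over all genes), and a DEG when the absolute log2 fold change was also at least 1. Between E10.5 and E11.5 (the earlier interval, E11.5 vs. E10.5), 3 of 10 Frizzleds were past the test, against 11.8% of the 15708 genes tested. Of these, 1 was higher at E11.5 (6.19% of all genes) and 2 were lower (5.58%). All 3 were DEGs (6.07% of all genes, with 3.46% higher and 2.61% lower). Between E11.5 and E12.5 (the later interval), 2 of 10 were past the test, against 12.2% of 15808 genes, with 1 higher (7.61%) and 1 lower (4.57%). Both were DEGs (5.1% of all genes, with 4.14% higher and 0.962% lower). Over the whole span (E12.5 vs. E10.5), 6 of 10 were past the test, against 24.6% of 15899 genes, with 2 higher (14%) and 4 lower (10.5%). There 5 were DEGs (15% of all genes), 2 higher (9.97%) and 3 lower (5.08%). In the test of all 3 stages on the 9 libraries together, 7 of 10 were past the test, against 28.3% of 16375 genes. The median log2 fold change of the family was near that of all genes in each comparison, at -0.02 against -0.03, -0.06 against 0.02 and -0.03 against -0.01 in the same order.

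**Figure D1:**
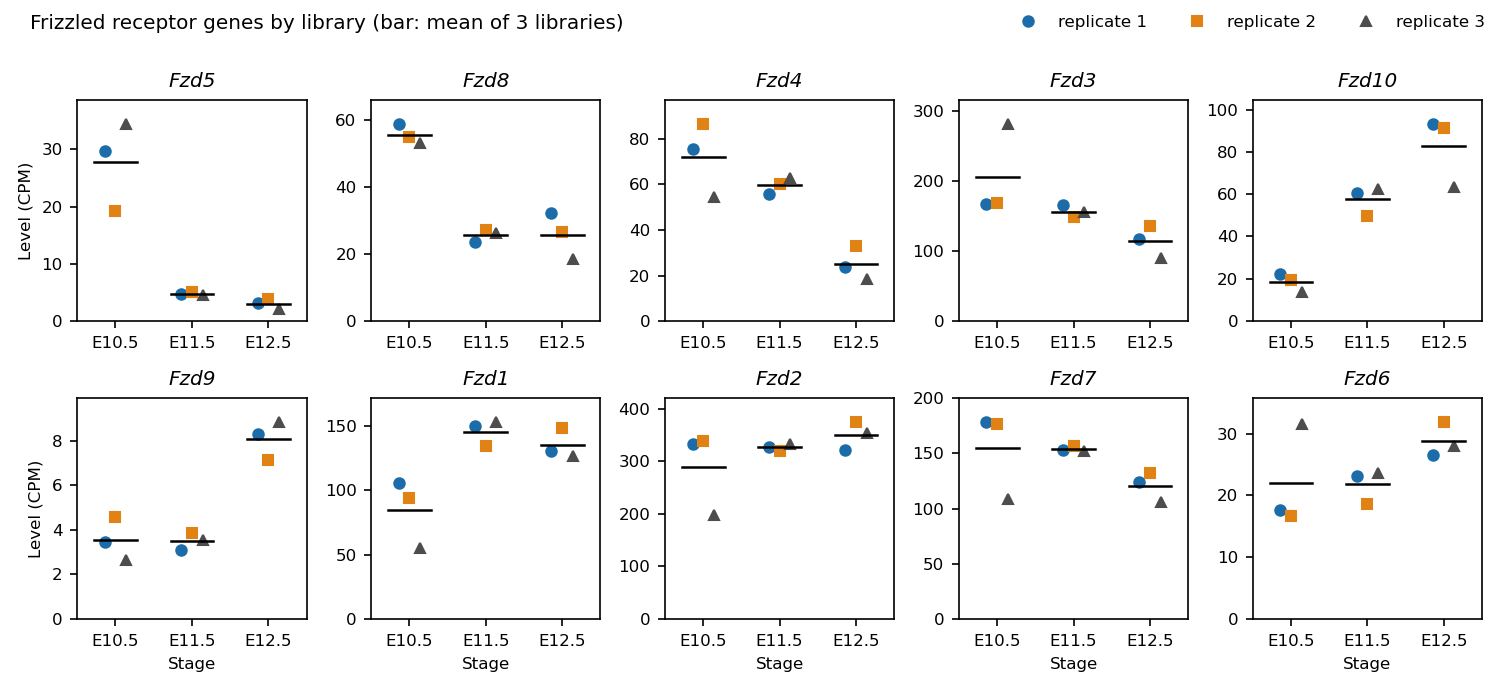
Level of each Frizzled gene in CPM (vertical axis, from 0, with its own scale per gene) in the 3 libraries of each stage (horizontal axis), with a bar at the mean. *Fzd5* lay between 19.3 and 34.3 CPM at E10.5 and between 2.09 and 5.14 CPM at both later stages, and E10.5 replicate 3 stood apart from the other E10.5 libraries for most genes.

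A feature of the E10.5 libraries bears on every comparison with that stage. E10.5 replicate 3 stood apart from replicates 1 and 2. Its ratio to their mean was 1.84 for *Fzd6*, 1.68 for *Fzd3* and 1.40 for *Fzd5*, and it was 0.935 for *Fzd8*, 0.673 for *Fzd4*, 0.663 for *Fzd9*, 0.649 for *Fzd10*, 0.615 for *Fzd7*, 0.591 for *Fzd2* and 0.551 for *Fzd1*. Over all genes with a known GC content, the median log2 ratio of this library to the other E10.5 libraries went from 0.64 for genes under 40% GC to -0.66 for genes of at least 60% GC. The Frizzled transcripts ranged from 40.3% GC (*Fzd3*) to 62.2% GC (*Fzd9*). Marker genes of cell types also differed in that library, with summed levels of 1655 CPM for facial mesenchyme against 2927 and 3069 in the other E10.5 libraries, 122 against 319 and 327 for endothelium, 759 against 418 and 467 for epithelium, and 499 against 348 and 393 for forebrain and eye field. The part of GC content or of tissue makeup in the Frizzled values of this library was not tested. Log2 fold changes of the Frizzleds against E10.5 are therefore given with and without it. Those of all other genes, and the counts in the pathway and marker lists, are given only with this library included.

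**Figure D2:**
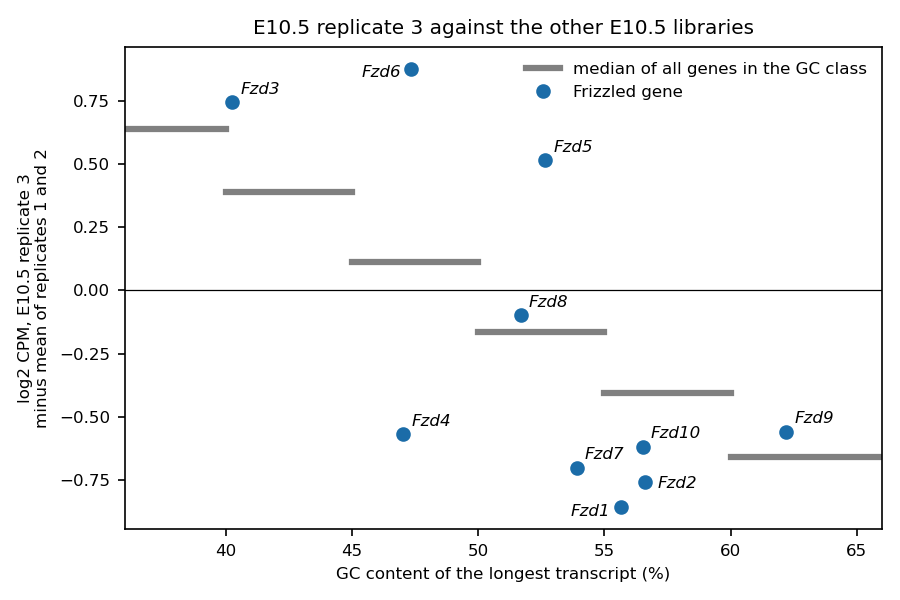
GC content of the longest transcript (horizontal axis, %) against the log2 CPM of E10.5 replicate 3 minus that of the mean of replicates 1 and 2 (vertical axis), for the 10 Frizzled genes as points and for all genes as medians per GC class (grey bars). *Fzd3* and *Fzd6* were higher in replicate 3 and *Fzd1*, *Fzd2* and *Fzd7* lower, while *Fzd6*, *Fzd5* and *Fzd4* lay farthest of the 10 from the medians of their GC classes.

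*Fzd5* and *Fzd8* form a closely related pair known from the anterior neural plate, forebrain and eye, where *Fzd5* is needed for normal eye formation. *Fzd5* (ENSMUSG00000045005, GRCm38 chr1:64730558-64737751, minus strand) has its whole coding sequence in 1 exon. Its levels were 29.8, 19.3 and 34.3 CPM at E10.5, 4.73, 5.14 and 4.58 CPM at E11.5, and 3.21, 3.82 and 2.09 CPM at E12.5. The 3 stages did not overlap for this gene, and most of the fall lay between E10.5 and E11.5. *Fzd5* fell by 2.52 ± 0.23 (SE) on the log2 scale from E10.5 to E11.5, a level 5.75-fold lower, with an edgeR adjusted p of 0.0013. From E11.5 to E12.5 its log2 fold change was -0.66 ± 0.25, which was not past the test (adjusted p = 0.102, edgeR). Without E12.5 replicate 2 that value was -0.87 (adjusted p = 0.0235). Over the whole span the level was 9.06-fold lower at E12.5 (log2 fold change -3.18 ± 0.30, edgeR adjusted p = 3.8e-05). Without E10.5 replicate 3, the fall to E11.5 was 2.34 and past the test, and over the whole span it was 2.99. Of the exon bases of *Fzd5*, 17.8% overlap *Gm38058* on the opposite strand, and whether reads were counted by strand is not given in the sources used here. *Gm38058* itself had 0 CPM in 8 libraries and 0.17 CPM in E12.5 replicate 1.

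*Fzd8* (ENSMUSG00000036904, GRCm38 chr18:9212856-9216201, plus strand) had levels of 58.6, 54.7 and 52.9 CPM at E10.5. They were 23.7, 27.0 and 26.4 CPM at E11.5, and 32.3, 26.5 and 18.4 CPM at E12.5. All E10.5 libraries lay above all later ones, and the E11.5 values lay within the range of those at E12.5. *Fzd8* fell by 1.10 ± 0.11 on the log2 scale from E10.5 to E11.5, 2.15-fold lower, with an edgeR adjusted p of 0.0015. The log2 fold change from E11.5 to E12.5 was -0.004 ± 0.19 (edgeR adjusted p = 0.991). Over the whole span it was -1.10 ± 0.22 (edgeR adjusted p = 0.0044), and without E12.5 replicate 3 it was -0.91, past the test but no longer a DEG. *Fzd8* thus differed little between E10.5 replicate 3 and the other E10.5 libraries, and the fall without that replicate was 1.13 to E11.5 and 1.12 to E12.5.

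Between E10.5 and E11.5, both genes and most marker genes of the forebrain and eye field fell. Within E10.5, the forebrain and eye field markers were highest in replicate 3, at 499 CPM, the library that stood apart. In that library *Fzd5* was at 34.3 CPM, against 29.8 and 19.3 CPM in the others of the stage. *Fzd8* differed little there, at 52.9 CPM against 58.6 and 54.7 CPM. Of the 10 markers of that tissue, 9 fell in E11.5 vs. E10.5, against 5.58% of all genes. The summed level of these markers was 348 to 499 CPM in the E10.5 libraries, 147 to 159 CPM a day later and 179 to 225 CPM at E12.5. *Sox2*, the marker with the highest level, was at 109 ± 19.5 CPM at E10.5 and 44.3 ± 5.0 CPM at E11.5. No marker of the list was at 3 counts or fewer in all libraries. The part of forebrain or eye tissue in the levels of *Fzd5* and *Fzd8* was not tested. In tissue RNA, fewer cells of a type and less RNA per cell cannot be told apart. Within libraries, the ratio of *Fzd8* to *Fzd5* per kb was 4.37 ± 1.36 in the E10.5 libraries, 11.04 ± 0.79 in those of E11.5 and 17.8 ± 3.27 in those of E12.5, so *Fzd5* took a smaller share of the pair at each later stage.

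*Fzd4*, the receptor for Norrin as well as for Wnts and known for its part in retinal blood vessel growth, fell in the later interval. *Fzd4* (ENSMUSG00000049791, GRCm38 chr7:89404355-89413134, plus strand) had levels of 75.6, 86.3 and 54.5 CPM at E10.5, 55.8, 60.1 and 62.7 CPM at E11.5, and 23.7, 33.2 and 18.4 CPM at E12.5. The E10.5 and E11.5 libraries overlapped, and all E12.5 libraries lay below both. From E11.5 to E12.5 *Fzd4* fell by 1.25 ± 0.19 on the log2 scale, 2.38-fold lower, with an edgeR adjusted p of 0.0022. From E10.5 to E12.5 it fell by 1.51 ± 0.25 (edgeR adjusted p = 0.0015). The change from E10.5 to E11.5 was -0.27 ± 0.17 and not past the test (edgeR adjusted p = 0.326), but without E10.5 replicate 3 it was -0.44 (adjusted p = 0.0012). The fall over the whole span was then 1.68. Endothelial marker genes were measured beside it. By edgeR none of 8 fell, against 5.58%, 4.57% and 10.5% of all genes in the earlier interval, the later interval and the whole span. Of the 8 markers, 0, 3 and 1 had an unadjusted p under 0.05 in that order, and DESeq2 called none lower. *Erg* rose in the later interval and over the whole span, and their summed level was 122 to 327 CPM in the E10.5 libraries, 313 to 324 CPM a day later and 281 to 354 CPM at E12.5. Neither *Ndp*, which encodes Norrin, nor *Tspan12*, which encodes its partner in the *Fzd4* receptor complex, passed the edgeR test in any comparison. DESeq2 called neither of them. *Ndp* was low, at 1.03 ± 0.53, 0.58 ± 0.09 and 1.10 ± 0.39 CPM from the earliest to the latest stage, so a missing call says little. In the later interval its log2 fold change was 0.90 ± 0.40, with an unadjusted edgeR p of 0.044 (adjusted p = 0.157).

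The promoters of *Fzd5* and *Fzd4* are shown because each held several GC boxes. The stretches end at the deposited gene start, come from RefSeq on GRCm38.p6, and are written 5′ to 3′ on the gene's own strand. Capitals mark GC boxes (GGGCGG) and CCAAT boxes (CCAAT) on either strand.
Fzd5, chr1:64737752-64738000, minus strand: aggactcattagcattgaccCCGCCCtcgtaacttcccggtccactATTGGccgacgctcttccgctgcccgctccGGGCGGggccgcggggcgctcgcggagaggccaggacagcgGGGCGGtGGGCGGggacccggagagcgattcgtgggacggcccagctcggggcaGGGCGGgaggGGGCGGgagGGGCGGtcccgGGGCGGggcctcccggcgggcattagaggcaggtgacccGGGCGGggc
Fzd4, chr7:89404116-89404354, plus strand: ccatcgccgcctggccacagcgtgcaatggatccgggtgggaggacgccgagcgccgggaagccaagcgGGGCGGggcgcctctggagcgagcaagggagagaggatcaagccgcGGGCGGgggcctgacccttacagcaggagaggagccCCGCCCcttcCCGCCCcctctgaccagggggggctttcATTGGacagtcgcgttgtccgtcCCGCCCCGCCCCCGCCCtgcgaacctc
The *Fzd5* stretch held 9 GC boxes and 1 CCAAT box, and the *Fzd4* stretch 7 GC boxes and 1 CCAAT box. Over 32851 promoters of 250 bases each, 32.7% held a GC box and 33.8% a CCAAT box. These shares are not matched for GC content, which was 76.4% and 72.8% in the *Fzd5* and *Fzd4* windows against a median of 52.4%. RefSeq promoters were found for 6 of the 10 genes, of which 5 held a GC box. Besides *Fzd5* and *Fzd4* these were *Fzd9* and *Fzd10*, which rose, and *Fzd7*, which did not pass the test. Their GC boxes were not counted. For *Fzd9*, 183 of the 250 bases searched lay inside the deposited gene, and for *Fzd10* all 250 did. The exception was *Fzd1*, which with 1 match each was the only one of the 6 with the TCF/LEF core TCAAAG (13.8% of all promoters) or with TATAAA (12.4%), searched on both strands. These matches are letters in a window, and nothing in the RNA data tested them.

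*Fzd10* rose most. *Fzd10* and its closest relative *Fzd9* can both relay β-catenin signals, and *FZD9* lies in the human region that is deleted in Williams syndrome. *Fzd10* (ENSMUSG00000081683, GRCm38 chr5:128600844-128604093, plus strand) had levels of 22.4, 19.4 and 13.6 CPM at E10.5, 60.6, 49.5 and 62.6 CPM at E11.5, and 93.0, 91.1 and 63.6 CPM at E12.5. The stages did not overlap, although E12.5 replicate 3 lay close to the highest E11.5 library. From E10.5 to E11.5 *Fzd10* rose by 1.64 ± 0.19 on the log2 scale, 3.13-fold, with an edgeR adjusted p of 0.0025, and without E10.5 replicate 3 by 1.47. From E11.5 to E12.5 its log2 fold change was 0.51 ± 0.16, not past the test (edgeR adjusted p = 0.0641). Without E12.5 replicate 3 that value was 0.66 and past the test (adjusted p = 0.0076). Over the whole span the rise was 4.50-fold (log2 fold change 2.17 ± 0.24, edgeR adjusted p = 9.2e-05), and without E10.5 replicate 3 the log2 fold change was 1.99.

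*Fzd9* (ENSMUSG00000049551, GRCm38 chr5:135248938-135251230, minus strand) was among the lowest Frizzleds. Its levels were 3.44, 4.58 and 2.66 CPM at E10.5, 3.12, 3.84 and 3.53 CPM at E11.5, and 8.27, 7.11 and 8.82 CPM at E12.5. The E10.5 and E11.5 libraries overlapped and all E12.5 libraries lay above them. *Fzd9* rose by 1.197 ± 0.19 on the log2 scale from E11.5 to E12.5, 2.29-fold, with an edgeR adjusted p of 0.0028, after a log2 fold change of -0.02 ± 0.25 from E10.5 to E11.5 (-0.19 without E10.5 replicate 3). Over the whole span it rose by 1.18 ± 0.27 (edgeR adjusted p = 0.0098), and by 1.02 without E10.5 replicate 3. With the GC trend of the libraries taken out by a smoothing fit, its rise from E11.5 to E12.5 was 0.96, past the test but under the DEG threshold. Within libraries, *Fzd10* was 3.72 ± 0.81 times *Fzd9* per kb in the E10.5 libraries, 11.8 ± 2.40 times in those of E11.5 and 7.35 ± 2.04 times in those of E12.5.

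**Figure D3:**
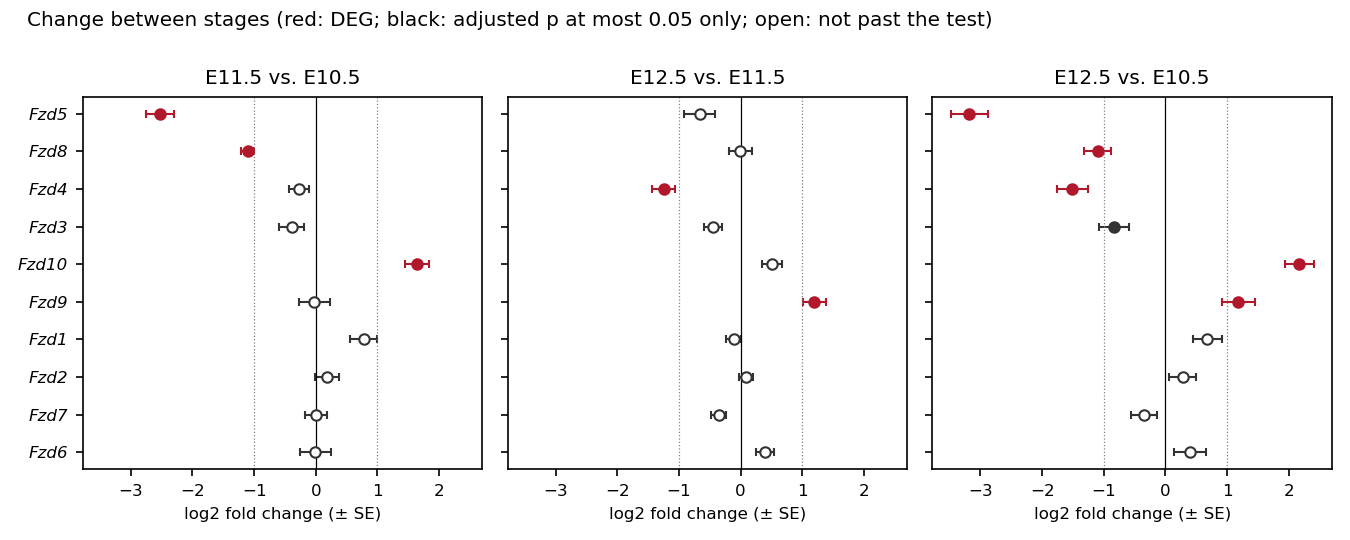
Log2 fold change, later stage over earlier (horizontal axis), with its SE for each Frizzled gene (vertical axis) in the 3 comparisons, with dotted lines at -1 and 1. *Fzd5*, *Fzd8* and *Fzd10* were DEGs in the earlier interval, *Fzd4* and *Fzd9* in the later interval, and all 5 over the whole span.

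*Fzd3* and *Fzd6* are the Frizzleds best known from planar cell polarity, *Fzd3* in axon guidance and neural tube closure and *Fzd6* in hair orientation. Both have 6 coding exons, unlike the other members, of which *Fzd4* has 2 and the rest have 1. *Fzd3* (ENSMUSG00000007989, GRCm38 chr14:65192449-65262463, minus strand) had levels of 166, 168 and 281 CPM at E10.5, 165, 148 and 155 CPM at E11.5, and 118, 136 and 90.4 CPM at E12.5. All E12.5 libraries lay below all earlier ones, and the highest value was that of E10.5 replicate 3. *Fzd3* fell by 0.83 ± 0.24 on the log2 scale from E10.5 to E12.5, with an edgeR adjusted p of 0.0295. That call was lost without E10.5 replicate 3 (log2 fold change -0.53, adjusted p = 0.0511), without E12.5 replicate 1 (-0.85, adjusted p = 0.0934) and without E12.5 replicate 3 (-0.69, adjusted p = 0.110). Its log2 fold changes over the shorter intervals were -0.39 ± 0.20 and -0.45 ± 0.15, neither past the test (edgeR adjusted p = 0.254 and 0.0764). Without E10.5 replicate 3 the former was -0.096, and without E12.5 replicate 2 the latter was -0.59 (adjusted p = 0.0063). *Fzd3* was past the 3-stage test (edgeR adjusted p = 0.0261), but not without E11.5 replicate 3 (0.0521), E12.5 replicate 1 (0.0847) or E12.5 replicate 3 (0.0857). Both *Fzd7* and *Fzd6* were past the 3-stage test without E10.5 replicate 3 (adjusted p = 0.0079 and 0.0061).

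*Fzd6* (ENSMUSG00000022297, GRCm38 chr15:39006034-39038188, plus strand) had levels of 17.6, 16.6 and 31.6 CPM at E10.5, 23.2, 18.6 and 23.6 CPM at E11.5, and 26.5, 31.8 and 28.1 CPM at E12.5. The stages overlapped through E10.5 replicate 3, which lay above all E11.5 libraries. *Fzd6* passed no test with all libraries, with log2 fold changes of -0.007 ± 0.25, 0.40 ± 0.15 and 0.40 ± 0.25 in the earlier interval, the later interval and the whole span. Without E10.5 replicate 3, its log2 fold change was 0.35 in the earlier interval (edgeR adjusted p = 0.0413) and 0.76 over the whole span (adjusted p = 0.0086). The opposite-strand gene *Gm26704* covers 3.15% of its exon bases. The ratio of *Fzd3* to *Fzd6* per kb did not depend on E10.5 replicate 3 in this way. It was 3.56, 3.80 and 3.35 in the E10.5 libraries, 2.68, 2.998 and 2.47 at E11.5 and 1.67, 1.60 and 1.21 at E12.5, so each later stage lay below the earlier ones.

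*Fzd1*, *Fzd2* and *Fzd7* are single-exon relatives expressed in many embryonic tissues, and *FZD2* is mutated in human skeletal disorders that affect the face. *Fzd2* (ENSMUSG00000050288, GRCm38 chr11:102604396-102608058, plus strand) had levels of 332, 339 and 198 CPM at E10.5, 327, 320 and 333 CPM at E11.5, and 321, 374 and 353 CPM at E12.5. The stages overlapped, and E10.5 replicate 3 was the lowest of the 9 libraries. Its log2 fold changes were 0.18 ± 0.19, 0.09 ± 0.12 and 0.28 ± 0.22 in the earlier interval, the later interval and the whole span, and no edgeR adjusted p was under 0.389. Without E10.5 replicate 3, the value was -0.03 for the earlier interval and 0.07 for the whole span.

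*Fzd1* (ENSMUSG00000044674, GRCm38 chr5:4753839-4758035, minus strand) had levels of 105.3, 94.3 and 54.95 CPM at E10.5, 150, 134 and 153 CPM at E11.5, and 130, 148 and 127 CPM at E12.5. All E11.5 and E12.5 libraries lay above all E10.5 libraries. With all libraries, its log2 fold change was 0.78 ± 0.22 in the earlier interval and 0.68 ± 0.23 over the whole span, neither past the test (edgeR adjusted p = 0.0558 and 0.0539). It was past the test of the 3 stages together (edgeR adjusted p = 0.0238), though not without E11.5 replicate 3 (adjusted p = 0.0531). In the earlier interval it was past the test without E10.5 replicate 3 (0.55, adjusted p = 0.00017) and without E10.5 replicate 1 (0.96, adjusted p = 0.0421), and over the whole span without E10.5 replicate 1 (0.85, adjusted p = 0.0393). Over the whole span without E10.5 replicate 3 its value was 0.45 (adjusted p = 0.0533). DESeq2 with all libraries called *Fzd1* higher in both comparisons (0.79, adjusted p = 0.0071, and 0.67, adjusted p = 0.0335). In all, 5 of 10 alternatives with all libraries put it past the test in the earlier interval and 7 of 10 over the whole span.

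*Fzd7* (ENSMUSG00000041075, GRCm38 chr1:59482424-59486955, plus strand) had levels of 178, 177 and 109 CPM at E10.5, 153, 157 and 152 CPM at E11.5, and 124, 132 and 106 CPM at E12.5. All E12.5 libraries lay below those at E11.5, and E10.5 replicate 3 lay among the E12.5 values. Its log2 fold changes with all libraries were -0.0004 ± 0.18, -0.36 ± 0.12 and -0.35 ± 0.21 in the earlier interval, the later interval and the whole span, none past the test (edgeR adjusted p = 0.999, 0.0805 and 0.265). Without E10.5 replicate 3, its values were -0.20 in the earlier interval (adjusted p = 0.0221) and -0.54 over the whole span (adjusted p = 0.0257), and without E12.5 replicate 2 the value for E12.5 vs. E11.5 was -0.43 (adjusted p = 0.0125). In contrast to the levels, the ratio of *Fzd1* to *Fzd7* within a library set the stages apart. *Fzd1* relative to *Fzd7* per kb was 0.638, 0.576 and 0.544 in the E10.5 libraries, 1.06, 0.921 and 1.08 in those of E11.5, and 1.14, 1.21 and 1.29 at E12.5. The 3 stages did not overlap for this ratio, and E10.5 replicate 3 lay beside the other E10.5 libraries.

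**Figure D4:**
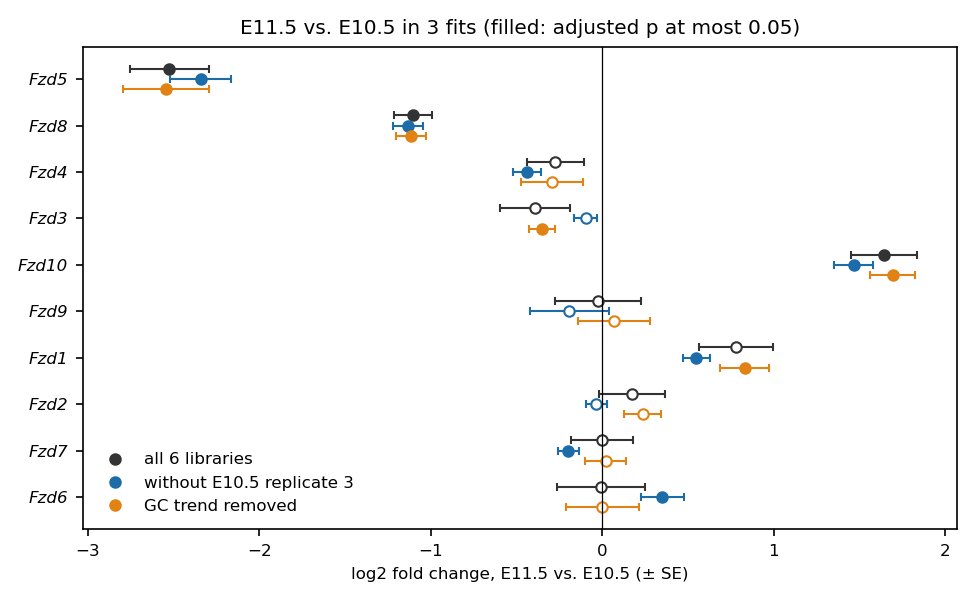
Log2 fold change in E11.5 vs. E10.5 (horizontal axis) with its SE for each Frizzled gene (vertical axis), with all 6 libraries, without E10.5 replicate 3 and with each library's GC trend removed. *Fzd5*, *Fzd8* and *Fzd10* were past the test in all 3 fits, and 7 of 10 genes were past it without E10.5 replicate 3. The share of all genes past the test in that fit was not computed.

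Between genes, levels were compared per kb of gene length. *Fzd2* was the most abundant Frizzled transcript at each stage, with 79.1, 89.2 and 95.4 CPM per kb from the earliest to the latest, and its libraries did not overlap with those of the next gene. At E10.5 the order was *Fzd2*, *Fzd7*, *Fzd1*, *Fzd8*, *Fzd3*, *Fzd4*, *Fzd10*, *Fzd6*, *Fzd5* and *Fzd9*. There *Fzd7* overlapped with *Fzd1*, *Fzd1* with *Fzd8*, *Fzd8* with *Fzd3*, *Fzd10* with *Fzd6* and *Fzd6* with *Fzd5*. At E11.5 the order was *Fzd2*, *Fzd1*, *Fzd7*, *Fzd10*, *Fzd3*, *Fzd4*, *Fzd8*, *Fzd6*, *Fzd9* and *Fzd5*, and of the neighbours only *Fzd1* and *Fzd7* overlapped. At E12.5 it was *Fzd2*, *Fzd1*, *Fzd7*, *Fzd10*, *Fzd3*, *Fzd8*, *Fzd6*, *Fzd4*, *Fzd9* and *Fzd5*, with overlaps between *Fzd7* and *Fzd10*, *Fzd3* and *Fzd8*, *Fzd8* and *Fzd6*, and *Fzd4* and *Fzd9*. *Fzd10* thus moved from rank 7 to rank 4, and *Fzd4* from rank 6 to rank 8.

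The summed level of the family was 193 ± 33.4 CPM per kb in the E10.5 libraries, 211 ± 6.40 a day later and 210 ± 16.9 at E12.5, with overlapping libraries. As a share of that sum, *Fzd10* was 2.93 ± 0.27% in the E10.5 libraries, 8.38 ± 0.79% a day later and 12.1 ± 1.92% at E12.5. *Fzd5* went from 2.19 ± 0.96% to 0.331 ± 0.030% and 0.207 ± 0.046%, *Fzd8* from 8.75 ± 1.34% to 3.64 ± 0.31% and 3.66 ± 0.94%, and *Fzd4* from 5.55 ± 0.48% to 4.20 ± 0.26% and 1.76 ± 0.38%. *Fzd2* held 40.6 ± 4.72%, 42.3 ± 0.46% and 45.5 ± 3.63% of the sum. The ratio of *Fzd10* to *Fzd5* per kb changed most among the 8 ratios computed, from 1.53 ± 0.65 in the E10.5 libraries to 25.6 ± 4.52 a day later and 59.1 ± 7.44 at E12.5. *Fzd4* was 1.91 ± 0.26 times *Fzd10* in the E10.5 libraries, 0.506 ± 0.073 times a day later and 0.147 ± 0.027 times at E12.5.

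**Figure D5:**
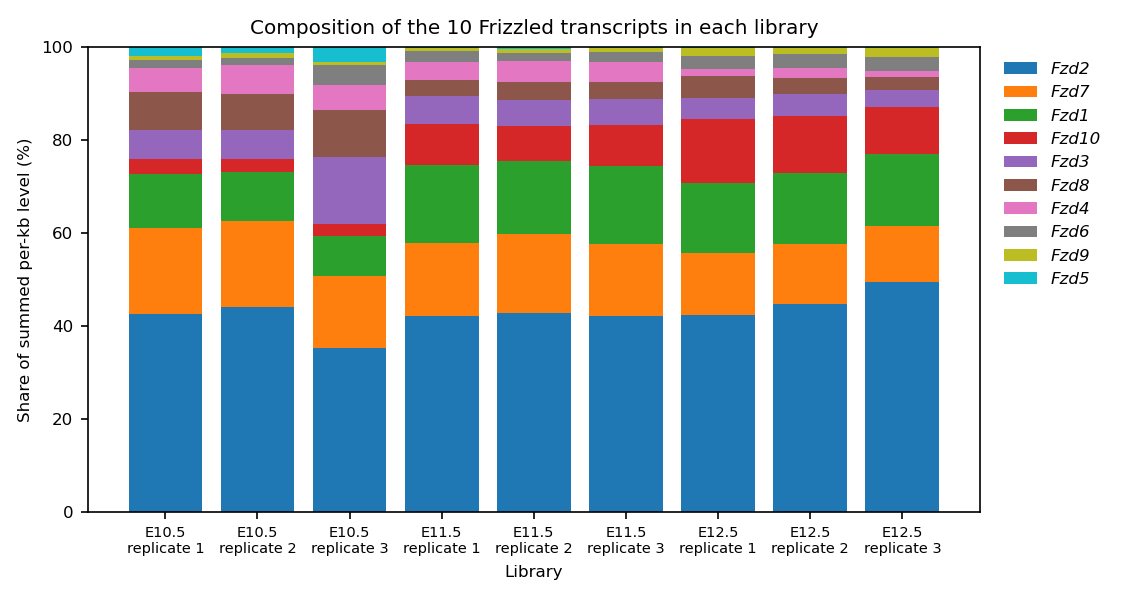
Share of each Frizzled gene in the summed CPM per kb of the 10 genes (vertical axis, %) in each of the 9 libraries (horizontal axis). *Fzd2* made up the largest share in each library, and the mean share of *Fzd10* was 2.93%, 8.38% and 12.1% from the earliest to the latest stage.

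Whether the change from E10.5 to E11.5 differed from that from E11.5 to E12.5 was tested in the fit of all 9 libraries. None of the 10 Frizzleds was past this test by edgeR (adjusted p at most 0.05), against 1.18% of all genes, and DESeq2 called 1, *Fzd5*. By edgeR 6 of 10 had an unadjusted p under 0.05, and the share of all genes at that unadjusted p was not computed. The difference of the later minus the earlier log2 change was 1.87 ± 0.46 for *Fzd5* (edgeR adjusted p = 0.0742, DESeq2 adjusted p = 0.0075), 1.11 ± 0.33 for *Fzd8* (edgeR adjusted p = 0.147) and -1.12 ± 0.34 for *Fzd10* (edgeR adjusted p = 0.170). For *Fzd4* and *Fzd9* this difference was -0.97 ± 0.36 and 1.23 ± 0.42 (edgeR adjusted p = 0.288 and 0.238). The edgeR call for *Fzd5* was reached without E10.5 replicate 2 (2.08, adjusted p = 0.0402) and that for *Fzd8* without E12.5 replicate 3 (1.30, adjusted p = 0.0454). The intervals in which single genes passed the test are therefore not shown to differ. By range alone, the libraries of the stages compared did not overlap for 5 of 10 Frizzleds in the earlier interval (36.6% of all genes), 7 of 10 in the later interval (35.3%) and 7 of 10 over the whole span (42.4%).

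The other components of the pathway were followed in lists of known members. Of all genes, 6.19%, 7.61% and 14% rose past the test in the earlier interval, the later interval and the whole span. The shares that fell were 5.58%, 4.57% and 10.5% in that order. No list was tested as a set. Of the co-receptors, 8 genes were tested, and *Ryk*, a Wnt-binding kinase-like receptor, was the only one past the test, higher by 0.55 ± 0.17 on the log2 scale in E12.5 vs. E10.5 (edgeR adjusted p = 0.0381). In the earlier and later intervals edgeR and DESeq2 called 0 of them, with 3 and 1 at an unadjusted p under 0.05. Of 9 genes for Frizzled turnover and R-spondin signals, in which R-spondins bound to Lgr receptors protect Frizzleds from the ligases Rnf43 and Znrf3, 4 rose in the earlier interval, 3 in the later interval and 3 over the whole span, and none fell. *Rspo3* rose by 2.45 ± 0.24 in the earlier interval and by 1.03 ± 0.14 in the later, and *Lgr6* rose by 1.59 ± 0.18 over the later interval (edgeR adjusted p = 0.0015, 0.0011 and 0.00038). *Lgr5* rose by 0.99 ± 0.15 in the earlier interval. In the later interval *Lgr5* and *Rspo2* had log2 fold changes of -0.42 ± 0.18 and -0.43 ± 0.16, neither past the test (edgeR adjusted p = 0.137 and 0.104). Of these 9 genes, 4, 5 and 4 had an unadjusted p under 0.05 in the earlier interval, the later interval and the whole span. None of the 12 genes for Dishevelled and the cytoplasmic relay passed the edgeR test in any comparison, with 1, 3 and 3 at an unadjusted p under 0.05, and DESeq2 called 1 lower in the earlier interval, 0 in the later and 1 over the whole span. *Smo*, the Hedgehog transducer and closest relative of the Frizzleds outside the family, did not pass it either, with log2 fold changes of -0.16, -0.12 and -0.27.

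Among the Wnt ligands, 4 rose and 1 fell of 15 tested in the earlier interval, 7 rose of 16 in the later interval and 11 rose of 16 over the whole span. Of all genes, 6.19%, 7.61% and 14% rose and 5.58%, 4.57% and 10.5% fell in these comparisons. *Wnt5a*, a ligand known for planar polarity signals, rose from 122 to 401 CPM between E10.5 and E11.5 (log2 fold change 1.72 ± 0.14, edgeR adjusted p = 0.0011), whereas *Wnt7a* fell from 4.26 to 1.39 CPM (-1.61 ± 0.38, edgeR adjusted p = 0.0326). *Wnt3a*, a β-catenin ligand near the detection limit at E10.5, rose from 0.196 to 2.09 CPM over the same interval. *Wnt10b* rose by 1.65 ± 0.17 and *Wnt16* by 3.29 ± 0.30 from E11.5 to E12.5. In that interval *Wnt7a* rose back to 4.34 CPM (1.63 ± 0.30, edgeR adjusted p = 0.0061). Its whole-span log2 fold change was 0.04 ± 0.31 (edgeR adjusted p = 0.949). *Notum*, which encodes an enzyme that inactivates Wnt ligands, rose by 1.28 ± 0.28 from E10.5 to E11.5 and was the 1 of 3 ligand-processing genes past the test. Of 10 antagonists tested, 5, 5 and 7 rose and 0, 1 and 0 fell in the earlier interval, the later interval and the whole span. *Dkk1*, which blocks Lrp5 and Lrp6, rose by 2.98 ± 0.21 and *Wif1*, which binds Wnt ligands, by 3.87 ± 0.37 over the whole span. *Frzb*, a secreted Frizzled-related protein, rose by 1.06 ± 0.20 from E10.5 to E11.5 (edgeR adjusted p = 0.0152). It then fell by 0.87 ± 0.13 from E11.5 to E12.5 (edgeR adjusted p = 0.0017). Over the whole span the log2 fold change of *Frzb* was 0.20 ± 0.23 (edgeR adjusted p = 0.564). *Kremen2*, a Dkk receptor, rose by 0.89 ± 0.16 from E11.5 to E12.5.

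Of 11 planar polarity genes, 2, 1 and 1 rose and 2, 1 and 3 fell in the same order. The shares of all genes were 6.19%, 7.61% and 14% higher and 5.58%, 4.57% and 10.5% lower. *Celsr2* and *Celsr3*, atypical cadherins of that pathway, fell by 1.37 ± 0.12 and 1.11 ± 0.17 from E10.5 to E11.5, and *Prickle1* rose by 1.03 ± 0.22 (edgeR adjusted p = 0.0012, 0.0069 and 0.0225). *Prickle2* rose by 0.89 ± 0.15 in the same interval, and in the later one *Fuz* rose by 0.73 ± 0.21 and *Intu*, like *Fuz* a ciliary effector of the pathway, fell by 0.56 ± 0.15. Of 10 known β-catenin targets, 5, 4 and 5 rose and 2, 2 and 2 fell. *Lef1* rose by 2.39 ± 0.18 and *Nkd2*, a feedback inhibitor, by 2.19 ± 0.18 over the whole span, whereas *Ccnd1* fell by 1.35 ± 0.20 and *Tcf7* by 0.79 ± 0.18. *Myc* fell by 0.75 ± 0.14 in the earlier interval and *Nkd1* rose by 0.54 ± 0.15 in the later. Facial mesenchyme markers rose in the earlier interval, as did some of the epithelial, neuron and red blood cell markers given below. Of 10 such markers, 6 rose in E11.5 vs. E10.5 and 0 fell, and their summed level was 1655 to 3069 CPM in the E10.5 libraries, 4683 to 5306 CPM a day later and 6405 to 7497 CPM at E12.5. The part of a changing tissue makeup in the level of any Frizzled was not tested.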

How the data were processed

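RNA of pooled lambdoidal junction tissue was sequenced from TruSeq libraries, 3 per stage. The authors mapped reads to GRCm38/mm10 with HISAT2 2.0.5, per the labels, and counted them per gene. The deposited table holds whole-number counts per gene and library, without normalization, and only these were tested. The authors also deposited FPKM values, fold changes and p-values of their own comparisons, and mean normalized values per stage, none of which were used. Whether counting used strand is not given in the sources used here, and nothing says that the pools of a stage came from separate litters, so p-values measure the spread between these libraries, which may be technical.

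The members and the gene lists were chosen with earlier results of these data known. Pairs of stages were fitted separately, on 6 libraries each, as the study did with DESeq2. Here edgeR 4.0.16 (R 4.3.3) was used, with filterByExpr, TMM and the quasi-likelihood test. The SE is the size of the log2 fold change over the root of its F statistic. Values per kb use the deposited gene length. The scripts were tested on simulated data. Replicates of a stage differed beyond counting noise in all 9 pairs (chi-square per degree of freedom 4.19 to 61.6). Counts are PCR reads, and an exact permutation of 3 against 3 libraries cannot go below p = 0.1. GC content, for 54409 of 54532 genes, and exon overlap come from GENCODE vM21 (GRCm38), in which 9 of the 10 Frizzleds have the deposited coordinates (*Fzd8* differs).

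The genes named are all 10 Frizzleds and, from each pathway list and comparison, up to 2 that rose and 2 that fell with the smallest p among those past the test whose libraries did not overlap, and, of each marker list, the marker with the highest level. *Ndp*, *Tspan12*, *Smo*, *Erg*, *Acan* and, for its later-interval value, *Rspo2* were named outside that rule. For each Frizzled DEG, the 2 protein-coding genes with the most similar profile were named. Alternatives were DESeq2 1.42.0, its size factors (RLE), upper quartile normalization, no filter, at least 10 counts in each library, 1 fit of all 9 libraries, a replicate block, GC trend removal (lowess span 0.3) with and without that block, globins left out, an adjusted p of at most 0.01, and each library left out in turn. The test between intervals was chosen after seeing the data.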

Additional observations from a re-analysis of the deposited data

How the results depend on the processing

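*Fzd5*, *Fzd8* and *Fzd10* in E11.5 vs. E10.5 and *Fzd4* and *Fzd9* in E12.5 vs. E11.5 stayed past the test under every alternative run, leaving out single libraries included. The number past the test in E11.5 vs. E10.5 (3 with all libraries) was 5 with the GC trend removed, with or without the replicate block, and 3 to 7 when single libraries were left out, 7 without E10.5 replicate 3. For the later interval, E12.5 vs. E11.5 (2), it was 4 with no filter, 5 with DESeq2 (*Fzd3*, *Fzd7* and *Fzd10* added) and 2 to 5 when single libraries were left out, 5 without E12.5 replicate 2. In E12.5 vs. E10.5 (6) that range was 5 to 7, and in the 3-stage test (7) it was 5 to 9, with 9 when E10.5 replicate 3 was left out and 5 when E11.5 replicate 3 was. The number of DEGs ranged from 3 to 3, 2 to 2 and 4 to 5 in the 3 comparisons, and in E12.5 vs. E11.5 it was 1 with the GC trend removed, with or without the block, since *Fzd9* was then at 0.96. For the difference between intervals (0), which was chosen after seeing the data, 3 were past the test with no filter, 1 with the GC trend removed, 1 with that and the block, 1 with DESeq2 and 0 to 1 when single libraries were left out. The share of all genes past the test was computed for none of these alternatives, so their counts of Frizzleds have no such share beside them. The cause of these differences was not tested.

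Directions turned for 6 values under at least 1 setting, none of them past the test with all libraries, and *Fzd2* turned in the earlier interval (-0.033) only when E10.5 replicate 3 was left out. For that interval, *Fzd7* was 0.0096 with upper quartile normalization, 0.0113 with no filter, 0.000515 with the stricter filter, 0.0329 with the block, 0.0201 and 0.0352 with the GC trend removed without and with the block, and 0.0054 with DESeq2. *Fzd6* was 0.0117 with upper quartile normalization, 0.0019 with no filter, 0.0457 with the block, and 0.0019 and 0.0381 with the GC trend removed without and with the block. *Fzd9* was 0.0713 and 0.0755 with the GC trend removed without and with the block. In E12.5 vs. E11.5, *Fzd2* was -0.0065 and -0.0131 with the GC trend removed without and with the block, and *Fzd8* was 0.0513 with upper quartile normalization, 0.0011 with the stricter filter and 0.0024 in the fit of 9 libraries. When single libraries were left out, E11.5 vs. E10.5 ranged from -0.033 to 0.30 for *Fzd2*, -0.20 to 0.11 for *Fzd7*, -0.19 to 0.20 for *Fzd9* and -0.17 to 0.35 for *Fzd6*, and E12.5 vs. E11.5 from -0.19 to 0.18 for *Fzd8*. Of the 300 values for single genes under other alternatives, 259 kept direction and side of the threshold, 22 passed it in addition, 0 lost it and 19 turned direction. Of the 180 with a single library left out, the numbers were 155, 11, 3 and 11 in the same order.

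Whether libraries of the same replicate number belong together across stages is not given in the sources used here. Deviations of same-numbered libraries correlated at -0.0082, 0.0215 and -0.0104 over genes in E11.5 vs. E10.5. They correlated at -0.0528, -0.151 and 0.0739 in E12.5 vs. E11.5, and at 0.178, 0.0701 and 0.220 in E12.5 vs. E10.5. Differently numbered libraries correlated at -0.0281 to 0.0400 in E11.5 vs. E10.5 and at -0.180 to 0.223 in E12.5 vs. E11.5. In E12.5 vs. E10.5 their correlations were -0.0062, -0.139, 0.153, -0.195, -0.219 and -0.0417. With the replicate block, 3, 2 and 7 Frizzleds were past the test in the 3 comparisons, the added call being *Fzd1* in E12.5 vs. E10.5 (0.73, edgeR adjusted p = 0.0184).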

Other observations

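Among 13137 protein-coding genes with a mean of at least 1 CPM, the genes with the profile over the 9 libraries most like that of a Frizzled DEG were found by the root mean square difference of centred log2 CPM, a description without a test. For *Fzd5* they were *Nr2e1*, a nuclear receptor known from forebrain and eye, at 0.263 and *Cyp26c1*, a retinoic acid-degrading enzyme, at 0.267, against a median of 1.40 over all candidates. *Nr2e1* had 39.8 ± 14.1, 9.10 ± 1.18 and 5.53 ± 1.42 CPM from the earliest to the latest stage. For *Fzd8* they were the transporter genes *Slc38a3* at 0.148 and *Slc16a6* at 0.184 (median 0.616).

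For *Fzd4* they were *Peg10*, a paternally expressed imprinted gene, at 0.149 and *Arhgap45* at 0.157 (median 0.766), and *Peg10* had 934 ± 128, 700 ± 36.02 and 313 ± 76.5 CPM at the 3 stages. For *Fzd9* they were *Cnn2*, an actin-binding calponin, at 0.166 and *Rgcc* at 0.170 (median 0.664). For *Fzd10* they were *Mst1r*, a receptor tyrosine kinase, at 0.109 and *Nfatc1*, a calcium-regulated transcription factor, at 0.116 (median 0.995), and *Nfatc1* had 5.73 ± 1.35, 15.7 ± 3.17 and 25.6 ± 5.04 CPM. The points share libraries and depth, and a like profile says nothing of shared function or control.

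Of the marker lists not given above, 2 of 8 neuron markers rose and 1 fell in E11.5 vs. E10.5, with a summed level of 199 to 224, 255 to 282 and 382 to 458 CPM at the 3 stages, led by *Tubb3*. In the same comparison 3 of 10 epithelial markers rose and 2 fell (418 to 759, 465 to 489 and 730 to 816 CPM, led by *Epcam*), 2 of 8 red blood cell markers rose (2840 to 3844, 4594 to 5012 and 4360 to 5669 CPM, led by *Hbb-y*), and 1 of 6 tested cartilage markers, *Acan*, rose by edgeR, whereas DESeq2 called 0 higher and 1 lower and the median log2 fold change was -0.29 (727 to 1144, 557 to 680 and 564 to 781 CPM, led by *Col2a1*). None of 8 macrophage markers passed the edgeR test in E11.5 vs. E10.5, 1 had an unadjusted p under 0.05, and DESeq2 called none (24.9 to 38.5, 37.5 to 41.0 and 46.9 to 50.6 CPM, led by *Csf1r*). Of all genes, 6.19% rose and 5.58% fell by edgeR in that comparison.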
